A study of Mus musculus with 4 samples.

Results

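Cells carry receptors that bind DNA or RNA found in the wrong place. In the cytosol, RIG-I (gene Ddx58) and MDA5 (Ifih1) bind double-stranded RNA and signal through MAVS on mitochondria, LGP2 (Dhx58) is a related helicase that tunes them, and STING (Tmem173) relays the signal of the DNA sensor cGAS. TLR3 and TLR7 bind double-stranded and single-stranded RNA in endosomes, PKR (Eif2ak2) is a kinase that slows translation when it binds double-stranded RNA, ZBP1 binds Z-form nucleic acid, and ADAR edits adenosines in double-stranded RNA so that it is no longer read as foreign. Most of these genes are themselves switched on by interferon. SKIV2L is the helicase of the SKI complex, which feeds cytoplasmic RNA to the exosome for degradation, so the question was whether epidermis that lacks it expresses its nucleic acid sensors at a different level.

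These 10 genes were picked by name out of the 54752 genes in the expression tables. The rule itself used no measured value, but the set was chosen with earlier results of these data known. RNA from the epidermis of C57BL/6 pups at postnatal day 0 was sequenced, from 2 Skiv2l fl/fl K14-Cre pups (the knockouts) and 2 Skiv2l ctl pups (the controls). In Skiv2l fl/fl K14-Cre pups both Skiv2l alleles are flanked by loxP sites and Cre is driven by the keratin 14 promoter, so deletion is aimed at keratinocytes and spares other cells of the epidermis, and these pups die within a day of birth. Skiv2l ctl stands for littermates of several genotypes (Skiv2l fl/fl, Skiv2l fl/+ or Skiv2l fl/+ K14-Cre), and which of them each control pup carried is not given. Levels are FPKM, fragments scaled to transcript length and library size, and are comparable between genes because they are per length.

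Skiv2l was at 19.3 and 19.1 FPKM in the controls and at 10.8 and 8.55 FPKM in the knockouts, a log2 fold change of -0.92 ± 0.12 (SE, limma adjusted p = 0.00368). Both knockouts lay below both controls, although about 0.506 of the control level remained. Aligned depth was 5.843 to 6.274 gigabases per library. The median log2 fold change of all 13609 tested genes was -0.20, and scaling the libraries to 1 median moved it by 0.17. Changes of sensors and pathway genes are therefore also given after that scaling where it matters. Calls of cell type markers, keratins among them, are given as deposited only. The keratinocyte markers summed to between 23852 and 27363 FPKM. Within that list Krt14 was at 1736 and 1812 FPKM in controls and 7381 and 7312 FPKM in knockouts (limma adjusted p = 0.000171). In contrast, Krt1 was called lower (12721 and 13157 against 8246 and 9975 FPKM, limma adjusted p = 0.0401) and Krt10 was at -0.44 without a call (limma adjusted p = 0.0760). Krt5, which like Krt14 marks basal keratinocytes, was at 2003 and 2075 FPKM in controls and 1761 and 1759 FPKM in knockouts. It was not called (log2 fold change -0.21, limma adjusted p = 0.130), and neither was Trp63 (-0.08).

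The sensors formed a graded set in control epidermis. Adar was the most abundant at 12.5 ± 1.44 FPKM (SD, n = 2), followed by Mavs at 6.96 ± 0.0240, Eif2ak2 at 6.36 ± 0.173 and Ddx58 at 4.32 ± 0.543 FPKM. Ifih1 (3.04 ± 0.386 FPKM) and Tmem173 (2.77 ± 0.0393 FPKM) came next, and their libraries overlapped, so their order is not settled. Dhx58 followed at 2.20 ± 0.0385 FPKM. The endosomal receptors and Zbp1 were near the lower limit of the data, with Tlr3 at 0.480 ± 0.0608 FPKM, and with Zbp1 (0.331 ± 0.123 FPKM) and Tlr7 (0.241 ± 0.142 FPKM) overlapping each other. In Skiv2l fl/fl K14-Cre epidermis Adar, Mavs and Eif2ak2 kept the first 3 places in the same order, but Ddx58 moved from above Ifih1 to below it, and Zbp1 lay above Tlr3, with Tlr7 overlapping both.

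**Figure D1:**
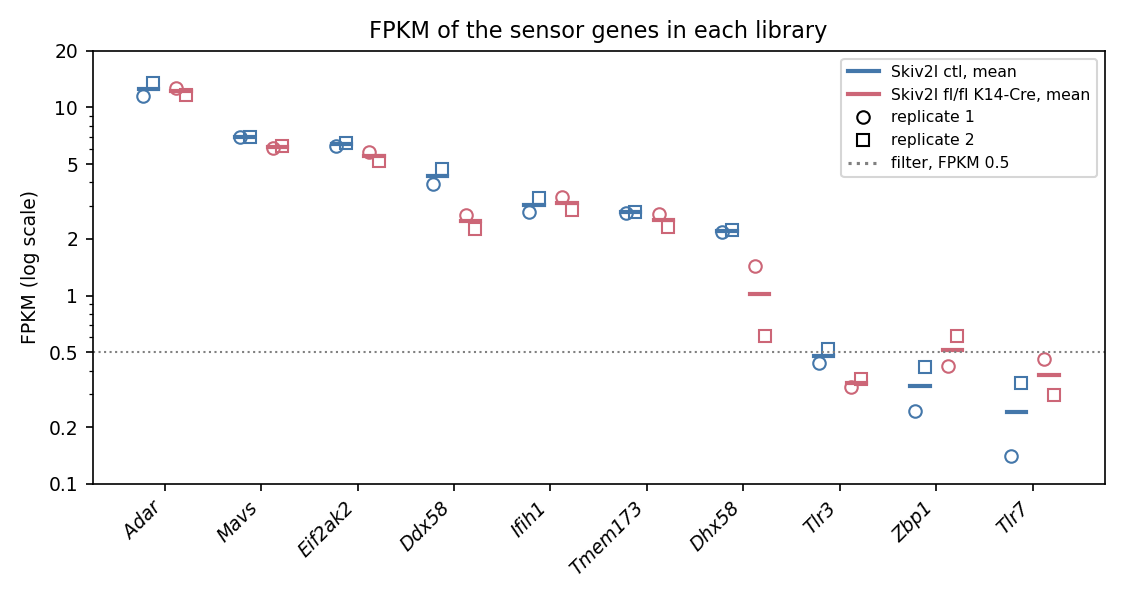
FPKM (log axis) of the 10 sensor genes, ordered by their control mean, with each library as a circle or square and the mean of each genotype as a bar. Ddx58 and Dhx58 lie clearly lower in both Skiv2l fl/fl K14-Cre libraries, Adar, Ifih1 and Tlr7 overlap between genotypes, and Tlr3, Zbp1 and Tlr7 sit around the dotted line at FPKM 0.5 that decides whether a gene is tested.

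Of the 10 sensors, 9 passed the filter of FPKM above 0.5 in at least 1 library and were tested. Tlr3 passed only through control replicate 2 (0.523 FPKM) and Zbp1 only through knockout replicate 2 (0.608 FPKM). Each passed in the group where it was higher, so the filter favors that direction for it. None was called higher and 2, Ddx58 and Dhx58, were called lower, which is 22.2% of the tested sensors. Among all tested genes 8.99% were called higher, 25.4% lower and 34.4% in either direction, so the share of sensors called lower was close to the background. At an unadjusted p under 0.05 the limma fit also gave 0 sensors higher and 2 lower, beside 11.9% higher and 35.7% lower over all tested genes. The other 7 had adjusted p from 0.235 to 0.911. The median log2 fold change was -0.14 over the 9 tested sensors, beside -0.20 over all tested genes, and 7 of the 9 lay above that overall median. Both knockout libraries were below both controls for 6 of the 10 sensors (55.3% of all tested genes) and above them for 1, Zbp1 (18.2% of all tested genes), and the libraries overlapped for 3. The sign of the small differences depended on scale, with 7 of 9 negative as deposited, 3 of 9 after median scaling and 2 of 9 after quantile normalization.

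**Figure D2:**
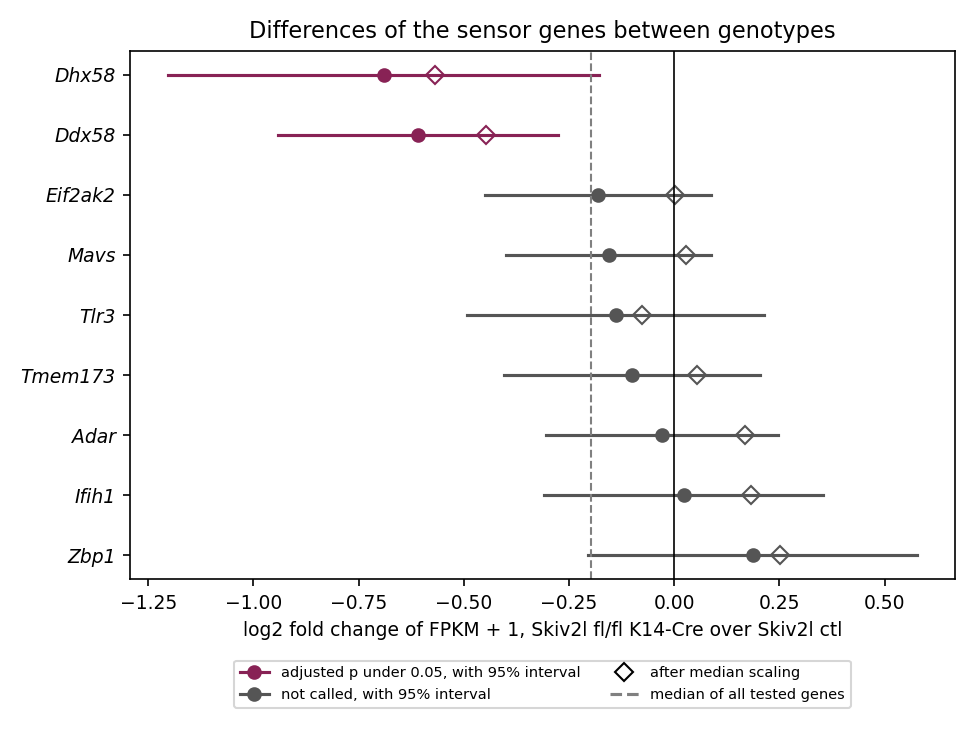
Log2 fold change of FPKM + 1 for the 9 tested sensors (x axis), with filled points and 95% intervals from limma, and open diamonds after median scaling of the libraries. Dhx58 and Ddx58 lie at -0.69 and -0.61 with intervals below 0, the other intervals span 0, and the diamonds of Eif2ak2 and Mavs fall at about 0.

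Among the RIG-I-like receptors, Ddx58 and Dhx58 were called lower and Ifih1 was not, and the difference between them was not tested. Counted from the most negative log2 fold change, they lay at the 12.6, 9.39 and 73.8 percentiles of all tested genes. Ddx58, the gene of RIG-I, which binds RNA ends bearing a triphosphate, lies on chromosome 4 from 40203773 to 40239828 on the minus strand (GRCm38). It was at 3.93 and 4.70 FPKM in the controls and 2.69 and 2.27 FPKM in the knockouts. Both knockouts were below both controls, at 0.576 of the control mean, with a log2 fold change of -0.61 ± 0.14 (SE, 95% interval -0.94 to -0.28, limma adjusted p = 0.0193). After median scaling the change was -0.45 and its adjusted p 0.0528, and after quantile normalization -0.40 and 0.0695, so the call did not survive either scaling. It was also lost without control replicate 1 (limma adjusted p = 0.0837), control replicate 2 (0.142) or knockout replicate 2 (0.0635).

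Dhx58, the gene of LGP2, which has the helicase but no signaling domain, lies on chromosome 11 from 100694884 to 100704271 on the minus strand. Its levels were 2.17 and 2.22 FPKM in controls and 1.43 and 0.614 FPKM in knockouts. The knockouts were again below both controls but lay far apart from each other. The log2 fold change was -0.69 ± 0.21 (SE, 95% interval -1.20 to -0.18, limma adjusted p = 0.0484), next to the threshold. The call was lost after median scaling, at -0.57, and after quantile normalization, at -0.49 (adjusted p = 0.112). Without Skiv2l fl/fl K14-Cre replicate 2 the change was -0.40 (adjusted p = 0.107), and without replicate 1 it was -0.99 (adjusted p = 0.0123). The call was also lost without control replicate 1 (limma adjusted p = 0.178) or control replicate 2 (0.188). An antisense gene, Dhx58os, covers 4.31% of the Dhx58 exon bases and was itself low (0.460 and 0.573 FPKM in controls, 0.219 and 0.126 FPKM in knockouts). Whether the reads were counted by strand is not given in the sources used here.

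Ifih1, the gene of MDA5, which binds long double-stranded RNA, lies on chromosome 2 from 62595798 to 62646255 on the minus strand. It read 2.77 and 3.32 FPKM in controls and 3.36 and 2.85 FPKM in knockouts. The genotypes overlapped fully, and the log2 fold change was 0.02 ± 0.14 (SE, 95% interval -0.31 to 0.35, limma adjusted p = 0.911). The fall measured for Ddx58 lies outside this interval, which is not a test of the difference between the pair.

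Ratios of FPKM within 1 library are unchanged when the whole library is multiplied by a factor, as in median scaling. The ratio of Ddx58 to Ifih1 was 1.42 in both controls and 0.802 and 0.797 in the knockouts. Dhx58 to Ifih1 gave 0.782 and 0.670 in controls and 0.425 and 0.215 in knockouts, also without overlap. Set against Mavs, the ratio of Ddx58 was 0.566 and 0.673 in controls and 0.444 and 0.365 in knockouts, and that of Dhx58 was 0.312 and 0.318 against 0.235 and 0.0986. In contrast, the ratios to Mavs of Ifih1 (0.399 and 0.475 in controls, 0.553 and 0.459 in knockouts), Eif2ak2, Adar and Tmem173 overlapped between genotypes, as did Dhx58 to Ddx58. Of 10 ratios computed, 4 were lower in both knockouts and 1, Adar to Eif2ak2, was higher (1.84 and 2.09 against 2.19 and 2.25). Each of the 4 has Ddx58 or Dhx58 above the line, so they restate the levels of these genes. The share of other gene pairs without overlap was not computed. These ratios were picked with the levels known, and with 2 pups a side the two-sided exact permutation p cannot go below 0.333, so they stand as descriptions.

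**Figure D3:**
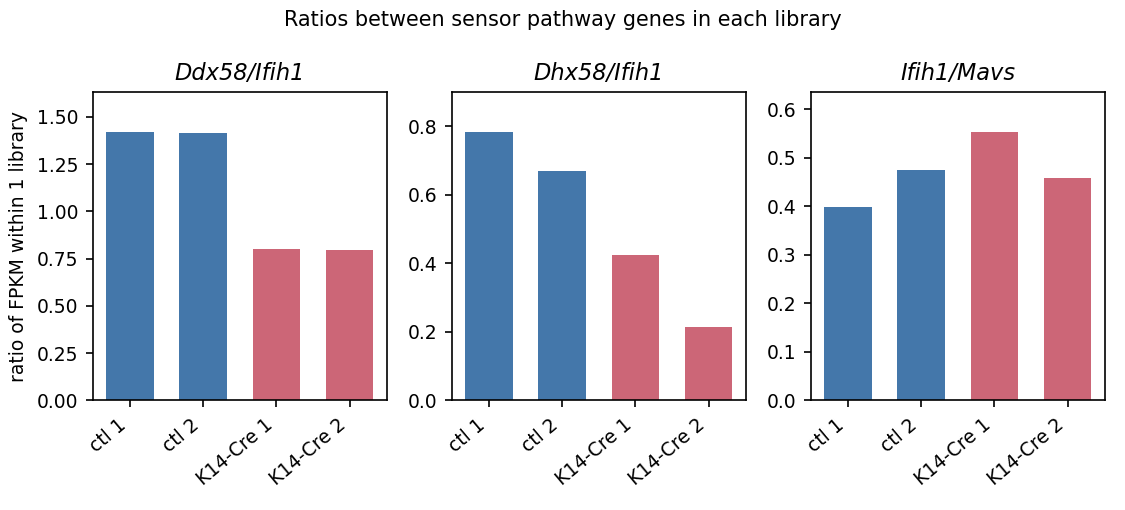
Ratios of FPKM within each library (y axes from 0) for Ddx58 over Ifih1, Dhx58 over Ifih1 and Ifih1 over Mavs, with a bar per library. The first ratio is 1.42 in both controls and about 0.80 in both knockouts, the second is lower in both knockouts with a wide gap between them, and the third overlaps.

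Interferon-responsive genes carry a motif near their start to which IRF proteins and the interferon-activated factor ISGF3 bind, with a core that reads GAAA, any 2 bases, GAAA. The letters were searched on both strands of RefSeq promoters (GRCm38.p6, 250 bases before to 50 after each start), which hold 6 of the 10 sensors with 8 promoters, and 3.44% of the 32851 promoters in that table contain them. They occurred in the promoters of Ddx58, Ifih1 and Eif2ak2 and were not found in those windows of Mavs, Tlr3 or Adar. In each of the 3 that hold it, the match lies within the first 50 bases after the start. The stretches around the start of these genes are shown because they place a called sensor next to a pair that was not called, with the match in capitals, 5′ to 3′ on the strand of the gene (all minus strand), at chr4:40239776-40239875 for Ddx58, chr2:62646206-62646305 for Ifih1 and chr17:78882523-78882622 for Eif2ak2.
Ddx58: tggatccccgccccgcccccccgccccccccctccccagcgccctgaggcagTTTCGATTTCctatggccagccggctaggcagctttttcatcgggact
Ifih1: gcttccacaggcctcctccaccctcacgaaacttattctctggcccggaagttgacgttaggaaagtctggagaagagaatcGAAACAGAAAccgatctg
Eif2ak2: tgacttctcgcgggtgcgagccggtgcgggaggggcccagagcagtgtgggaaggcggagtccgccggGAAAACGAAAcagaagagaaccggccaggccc
In Ddx58 the match reads on the strand opposite to the gene, and in the other 2 genes on the strand of the gene. Thus Ddx58, which was called lower, and Ifih1 and Eif2ak2, which were not called, all hold the letters. A match of letters is not evidence of binding.

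Mavs, the adaptor through which RIG-I and MDA5 signal, lies on chromosome 2 from 131234063 to 131248025 on the plus strand. Its level was tight, at 6.95 and 6.98 FPKM in controls and 6.08 and 6.22 FPKM in knockouts. Although the groups did not overlap, the log2 fold change of -0.16 ± 0.10 (SE, 95% interval -0.40 to 0.09) was not called (limma adjusted p = 0.257), and it was 0.03 after median scaling.

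Eif2ak2 (chromosome 17 from 78852564 to 78882573, minus strand) was at 6.23 and 6.48 FPKM in controls and 5.81 and 5.18 FPKM in knockouts. The log2 fold change of -0.18 ± 0.11 (SE, 95% interval -0.45 to 0.09, limma adjusted p = 0.235) became 0.0010 after median scaling. Adar (chromosome 3 from 89715022 to 89753446, plus strand) was at 11.5 and 13.5 FPKM in controls and 12.7 and 11.7 FPKM in knockouts, with full overlap and a log2 fold change of -0.03 ± 0.11 (SE, 95% interval -0.31 to 0.25, limma adjusted p = 0.855). Chrnb2 overlaps 16.8% of the Adar exon bases on the opposite strand, at 0.676 to 1.39 FPKM. As for the RNA-binding effectors, then, neither the kinase nor the editing enzyme passed the test in either direction.

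Tlr3 (chromosome 8 from 45395665 to 45411080, minus strand) was low throughout, at 0.437 and 0.523 FPKM in controls and 0.328 and 0.360 FPKM in knockouts. Its log2 fold change was -0.14 ± 0.14 (SE, 95% interval -0.49 to 0.21, limma adjusted p = 0.475), and a change of low values is understated on the FPKM + 1 scale. Tlr7 (chromosome X from 167304929 to 167330558, minus strand) stayed under the filter and was not tested. It was at 0.140 and 0.341 FPKM in controls and 0.463 and 0.296 FPKM in knockouts, with overlap, and its mean per-base coverage was 0.204 to 0.584 reads. Zbp1 (chromosome 2 from 173206612 to 173218923, minus strand) was the one sensor with both knockouts above both controls. It was at 0.244 and 0.418 FPKM in controls and 0.421 and 0.608 FPKM in knockouts, the nearest libraries almost touched, and the log2 fold change of 0.19 ± 0.16 (SE, 95% interval -0.20 to 0.58) was not called (limma adjusted p = 0.387).

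Tmem173, the gene of STING (chromosome 18 from 35733678 to 35740554, minus strand), was at 2.74 and 2.80 FPKM in controls and 2.71 and 2.33 FPKM in knockouts. Control values were nearly equal and knockout replicate 1 lay just under them. The log2 fold change was -0.10 ± 0.13 (SE, 95% interval -0.41 to 0.20, limma adjusted p = 0.548). None of the 10 sensors shared a 75-base stretch with a transcript of another gene when both were read in their own direction. Overlaps with genes on the opposite strand, present for Dhx58, Tlr3, Eif2ak2 and Adar, were not covered by this search.

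Epidermis also holds leukocytes, which express many of these sensors, and several of their markers were lower in the knockouts. Over all tested genes 25.4% were called lower, to be read beside each marker count below. The marker calls are for levels as deposited. After median scaling, the genes called lower went from 3455 to 1623 of all 13609 tested. Markers common to leukocytes summed to 28.2 and 29.9 FPKM in controls and 16.8 and 14.4 FPKM in knockouts, with 4 of 5 called lower, none of the 5 at 0. Markers of Langerhans cells or macrophages summed to 41.0 and 52.6 FPKM in controls and 24.4 and 20.3 FPKM in knockouts, with 4 of 9 tested called lower. Those called were Csf1r, Cd74, H2-Aa and H2-Ab1, whereas Lyz2 had a positive log2 fold change (0.16, not called). Cd207, a Langerhans cell marker, was too low to be tested, at 0.04 FPKM in both controls and listed at 0 in both knockouts. T cell markers summed to 10.9 FPKM in both controls and to 8.40 and 9.02 FPKM in knockouts, with 0 of 4 tested called. Most of that sum was Thy1, at 8.31 and 7.71 FPKM in controls and 6.63 and 7.10 FPKM in knockouts. Ddx58 and Dhx58, and Aim2 and Irf7 described below, were under both controls in both knockouts, as were the leukocyte sums. So were 55.3% of all tested genes, whereas Zbp1 lay above both controls and Tlr7 overlapped. The part of these cells in the sensor levels was not tested. In bulk tissue, fewer cells of a type and less RNA per cell cannot be told apart. The fibroblast list summed to 61.3 and 69.0 against 21.9 and 25.04 FPKM, most of it Dcn, with 2 of 5 tested called lower and Pdgfra at 0.299 and 0.250 against 0.789 and 0.668 FPKM (not called). Red blood cell markers summed to 134 and 125 against 62.0 and 80.7 FPKM, with 4 of 5 called lower. Summed melanocyte markers overlapped between genotypes, endothelial and muscle markers stayed below 1 FPKM in sum, and of the neutrophil markers only Cxcr2 was above 0.5 FPKM, being higher in knockouts, while Ly6g and Elane were listed at 0 in every library.

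**Figure D4:**
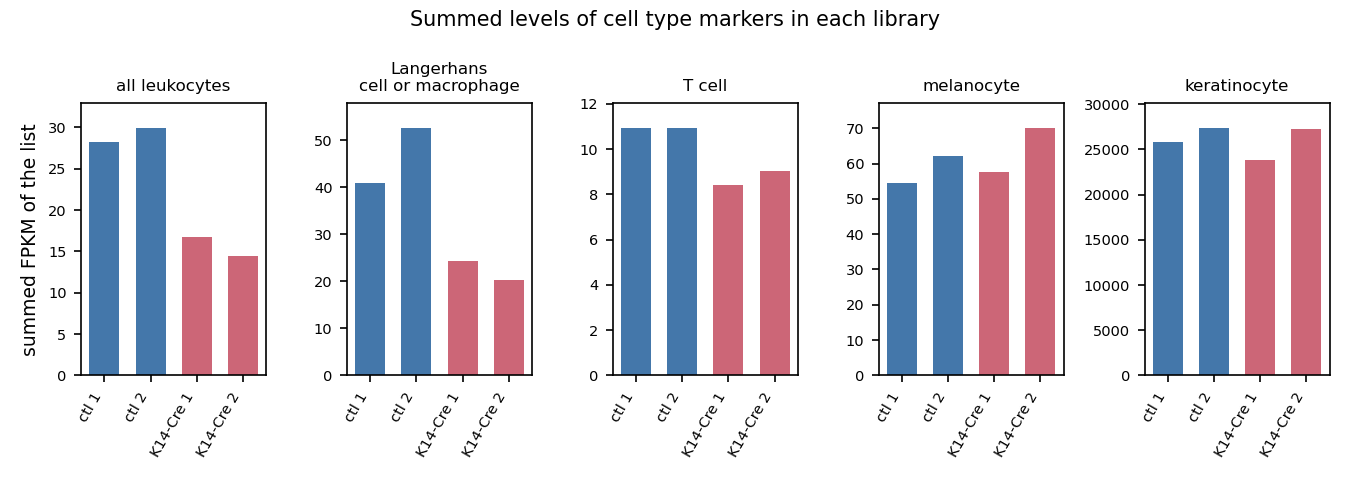
Summed FPKM (y axes from 0, linear) of the marker lists for all leukocytes, Langerhans cells or macrophages, T cells, melanocytes and keratinocytes, with a bar per library. The first 3 sums are lower in both knockouts, whereas the melanocyte and keratinocyte sums overlap between genotypes. Most of the T cell sum is Thy1.

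Of 23 other nucleic acid sensors, 17 were tested, 2 were called higher, 3 lower and 12 not called, against 8.99% higher and 25.4% lower over all tested genes, with a median log2 fold change of -0.27. Ifi204, a DNA-binding protein of the interferon-inducible p200 family, rose from 2.82 and 3.07 FPKM to 12.4 and 11.0 FPKM (3.97-fold, log2 fold change 1.68 ± 0.11 SE, limma adjusted p = 0.000388). Since 13.2% of its 75-base stretches recur in neighbors such as Ifi211 and Mndal, part of that value may belong to them. The rise of Ifi204 held after median and quantile scaling. Aim2, the DNA sensor of the inflammasome, fell from 2.11 and 2.89 FPKM to 1.39 and 0.932 FPKM (log2 fold change -0.69 ± 0.18 SE, limma adjusted p = 0.0288), and this call was lost after median scaling (adjusted p = 0.0595). The other genes called lower were Oas1a at -0.46 and Dhx9 at -0.31, and after either scaling no gene of this list was called lower.

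Of the cofactors that help or restrain these sensors, all 12 were tested, with 1 called higher, 6 lower and 5 not called (against 8.99% higher and 25.4% lower over all tested genes), and a median log2 fold change of -0.29. Nlrx1, a mitochondrial protein described as a brake on MAVS, rose from 7.46 and 8.75 FPKM to 14.2 and 12.1 FPKM (log2 fold change 0.63 ± 0.12 SE, limma adjusted p = 0.0127), and its call held under both scalings. Rnf125, a ubiquitin ligase that marks RIG-I for degradation, fell from 1.57 and 1.26 FPKM to 0.710 and 0.527 FPKM. Prkra, which encodes the PKR activator PACT, fell from 8.18 and 9.27 FPKM to 5.92 and 5.30 FPKM (log2 fold change -0.56 ± 0.12 SE, limma adjusted p = 0.0152). None of the 6 falls kept its call after median scaling, and 1, Ywhae (-0.34, adjusted p = 0.0288), did after quantile normalization.

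Downstream of the sensors, 24 of 25 adaptors, kinases and transcription factors were tested, with 2 called higher, 4 lower and 18 not called (against 8.99% higher and 25.4% lower over all tested genes), and a median log2 fold change of -0.01. Irf7, the transcription factor that amplifies type I interferon, had the largest absolute change of any tested gene in these lists. It was at 25.8 and 26.9 FPKM in controls and at 2.83 and 1.65 FPKM in knockouts, a log2 fold change of -3.10 ± 0.18 (SE, limma adjusted p = 0.000265) that was -2.93 after median scaling. Ikbke, the gene of the kinase IKKε that phosphorylates IRF proteins, fell from 12.2 and 11.4 FPKM to 4.80 and 5.31 FPKM (log2 fold change -1.08 ± 0.11 SE, limma adjusted p = 0.00126). Ripk3, the kinase through which ZBP1 triggers necroptosis, rose from 3.997 and 3.18 FPKM to 7.46 and 6.70 FPKM (log2 fold change 0.82 ± 0.13 SE, limma adjusted p = 0.00677), while Zbp1 itself was not called. These 3 calls held under both scalings. The others were Myd88, the adaptor of TLR7 (0.35), Irak1 (-0.45) and Irf3 (-0.29), and the last 2 were not called after median or quantile scaling.

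Of the enzymes that clear or edit the cell's own nucleic acid, all 14 were tested, with 4 called higher, 1 lower and 9 not called (against 8.99% higher and 25.4% lower over all tested genes), and a median log2 fold change of -0.14. Trex1, the exonuclease that degrades cytosolic DNA, rose from 0.324 and 0.360 FPKM to 3.92 and 4.34 FPKM, which is 12.1-fold (log2 fold change 1.93 ± 0.13 SE, limma adjusted p = 0.000389). Of its 75-base stretches 93.4% also lie in transcripts of Atrip, which overlaps it and read 7.60 and 8.62 FPKM in controls and 9.59 and 7.59 FPKM in knockouts, so the split of reads between the pair is uncertain. It passed the filter only through the knockouts. Adarb1, an adenosine deaminase related to ADAR, rose from 2.99 and 3.07 FPKM to 8.16 and 11.5 FPKM (log2 fold change 1.41 ± 0.16 SE, limma adjusted p = 0.00227), whereas Adar did not pass the test. Samhd1, a dNTP hydrolase, rose from 13.5 and 12.6 FPKM to 37.9 and 32.3 FPKM (log2 fold change 1.36 ± 0.11 SE, limma adjusted p = 0.000672). Pld3 was also called higher (0.27) and Rnaseh2a lower (-0.41). The count of 4 higher was the same after median scaling and after quantile normalization, beside 1894 and 1683 of all 13609 tested genes. It was 3 without a filter, with every biotype, with TPM, with a replicate block, without a trend and at a threshold of 0.01.

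In the eIF2 pathway, which PKR shares with other stress kinases, 13 genes were tested and 1 was called higher, none lower and 12 not called (against 8.99% higher and 25.4% lower over all tested genes). At an unadjusted p under 0.05 the limma fit gave 2 higher and 4 lower, which is 15.4% and 30.8%, beside 11.9% and 35.7% of all tested genes. Ppp1r15a, the phosphatase subunit GADD34 that is made under stress and reverses eIF2 phosphorylation, rose from 11.5 and 9.71 FPKM to 18.1 and 27.4 FPKM (log2 fold change 1.01 ± 0.19 SE, limma adjusted p = 0.0120). Its control values were close, and the knockouts differed from each other.

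Interferon ligands, receptors and JAK-STAT genes were 17, of which 10 were tested, with none called higher and 2 lower, against 8.99% higher and 25.4% lower over all tested genes. At an unadjusted p under 0.05 the limma fit gave 0 higher and 2 lower, beside 11.9% higher and 35.7% lower over all tested genes. Ifnb1, Ifna2, Ifna4 and Ifnl2 were listed at 0 in every library, and Ifna1 (0.0476 FPKM), Ifne (0.101 FPKM) and Ifnl3 (0.0281 FPKM) in every library but 1 knockout each. Ifnlr1, the receptor chain for type III interferon, fell from 4.75 and 6.18 FPKM to 3.34 and 3.79 FPKM (log2 fold change -0.50 ± 0.15 SE, limma adjusted p = 0.0444), and Ifnar1, a chain of the type I receptor, fell from 12.5 and 12.9 FPKM to 10.04 and 10.07 FPKM (log2 fold change -0.31 ± 0.09 SE, limma adjusted p = 0.0442). Neither was called after median or quantile scaling.

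Among 35 interferon-stimulated genes, a list that shares genes such as Irf7 and the Oas family with the lists above, 25 were tested, none was called higher, 6 were called lower and 19 were not called (against 8.99% higher and 25.4% lower over all tested genes), and their log2 fold changes had a median of -0.35. At an unadjusted p under 0.05 the limma fit gave 0 higher and 12 lower, the latter 48% beside 35.7% of all tested genes. Of the 6, 2 (Ifit3 and Cmpk2) passed the filter only through the controls, where they were high, so the filter favors a lower call for them. Besides Irf7, Ifi27l2a, a small interferon-induced membrane protein, fell from 2.67 and 3.39 FPKM to 0.847 and 0.335 FPKM (log2 fold change -1.35 ± 0.20 SE, limma adjusted p = 0.00470), and its relative Ifi27 fell from 6.77 and 9.62 FPKM to 4.44 and 3.69 FPKM (log2 fold change -0.85 ± 0.18 SE, limma adjusted p = 0.0150). After median scaling 3 of the 25 tested were called lower and none higher, beside 1623 lower and 1894 higher of all 13609 tested genes. The share of the list called lower was then close to that of all tested genes. The leukocyte sums given above were also lower in both knockouts, as were the levels of 55.3% of all tested genes. The part of leukocytes was not tested here either.

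**Figure D5:**
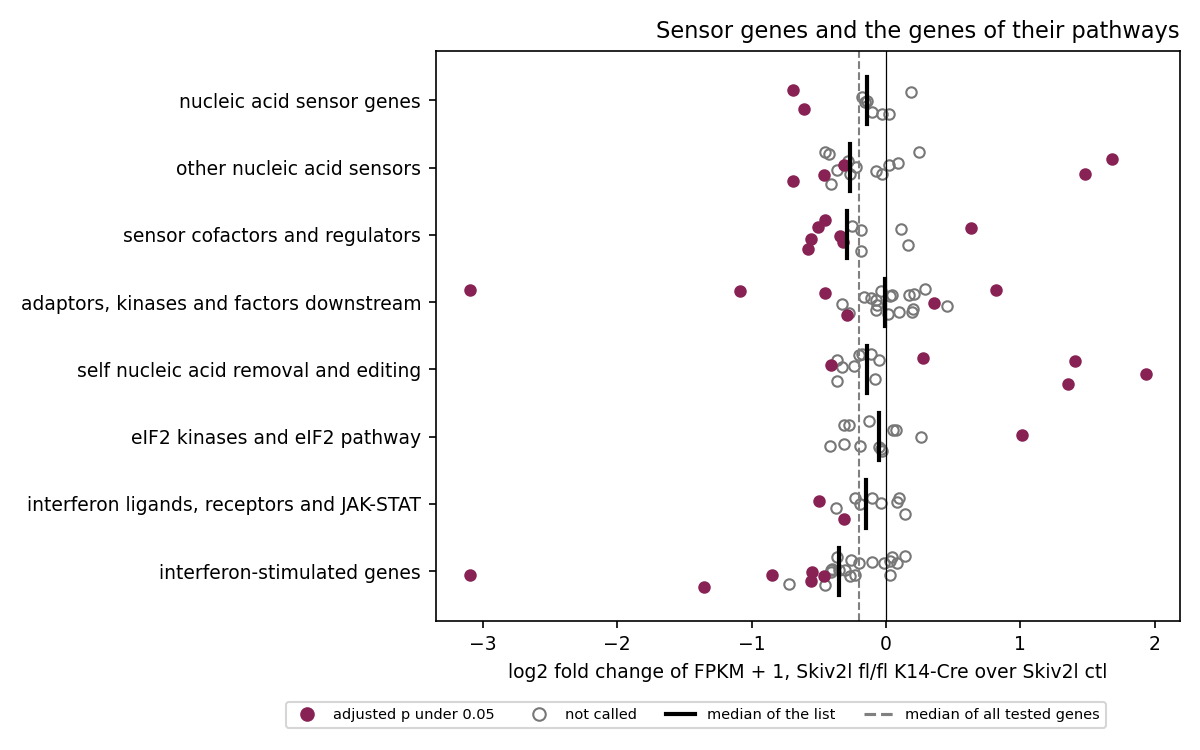
Log2 fold change of FPKM + 1 (x axis) for every tested gene of the sensor set and of 7 pathway lists, filled where the limma adjusted p was under 0.05, with the median of each list as a black bar and the median of all tested genes as a dashed line. The filled points on the right are few, with 4 in self nucleic acid removal (among them Trex1, Adarb1 and Samhd1) and at most 2 in any other list, and Irf7 stands far to the left in the 2 lists that hold it.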

How the data were processed

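Epidermal RNA of 4 pups was analysed, 2 of each genotype, with groups and replicate numbers from the labels. Reads were aligned and quantified by the authors with a workflow at their institution on GRCm38 (submitters' processing notes). The aligner's settings and strandedness are not given in the sources used here. FPKM was deposited by the authors for each gene, and corrects for length and sequencing depth. TPM, also deposited, sums to 1 total per library and served as an alternative. The ratio of deposited coverage (reads per base, averaged over a gene) to FPKM varied between genes. Its most common value in each library, among genes with FPKM above 1, was taken as the depth. Counting intervals need read numbers, which were not used here, and 2 pups per genotype limit the precision.

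FPKM was summed per gene identifier. The 13609 protein-coding genes (GENCODE M21) with FPKM above 0.5 in at least 1 library entered a two-sided limma fit with a trend (version 3.58.1, R 4.3.3) of log2(FPKM + 1), and p-values were adjusted over all of them by Benjamini-Hochberg at a threshold of 0.05. The fold changes are on that scale and understate changes of low genes. The script was tested on simulated data. Replicates correlated at 0.989 within each genotype.

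The sensor genes, lists and tests were chosen with earlier results of these data known. Named genes are the 10 sensors, Skiv2l and up to 3 called genes with the largest change per list, of which 1 is not reported here. Ywhae, Oas1a, Dhx9, Myd88, Irak1, Irf3, Pld3, Rnaseh2a, Ifit3, Cmpk2, Ifnb1, Ifna1, Ifna2, Ifna4, Ifne, Ifnl2, Ifnl3, Krt1, Krt5, Krt10, Krt14, Trp63, Thy1, Dcn, Pdgfra, Cxcr2, Cd207, Csf1r, Cd74, H2-Aa, H2-Ab1, Lyz2, Ly6g, Elane, Atrip and the genes that overlap sensors were named after their values were seen. Sequences are from RefSeq (GRCm38.p6). The alternatives were a pseudocount of 0.1, FPKM above 1 in at least 2 libraries, no filter, every biotype, TPM, median scaling, quantile normalization, a replicate block, no trend, a threshold of 0.01 and leaving out each library.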

Additional observations from a re-analysis of the deposited data

How the results depend on the processing

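No sensor was called higher under any of the 14 alternatives. The count called lower, 2 as reported, was 1 with a pseudocount of 0.1, with every biotype and without a trend, and 0 without a filter, after median scaling, after quantile normalization and at a threshold of 0.01, and it ran from 0 to 2 when 1 library was left out. Ddx58 was called in 7 of 14 (log2 fold change -0.77 to -0.40, limma adjusted p 0.0136 to 0.142), and lost its call without either control or without knockout replicate 2 (adjusted p = 0.0635). Dhx58 was called in 4 of 14 (-1.14 to -0.40, adjusted p 0.0123 to 0.234). Leaving out a library leaves fewer samples, and the lone sample is assumed to vary like the other group. The causes of the other losses were not tested.

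Small differences of sensors changed sign. After median scaling Mavs was at 0.0292, Eif2ak2 at 0.0010, Adar at 0.168 and Tmem173 at 0.0534, and after quantile normalization Mavs was at 0.0399, Tlr3 at 0.0325, Eif2ak2 at 0.0175, Adar at 0.126 and Tmem173 at 0.111. Ifih1 was at -0.0161 with TPM. With 1 library left out, Ifih1 ran from -0.0753 to 0.120 and Adar from -0.138 to 0.0795.

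Over all genes, those called higher were 475 without a filter, 1894 after median scaling and 669 at a threshold of 0.01, beside 1223, and ran from 497 to 1146 with 1 library left out. Those called lower were 927, 1623 and 1279 under the same settings and 1917 after quantile normalization, beside 3455, and ran from 805 to 3135. Rises were 26.1% of calls as reported, 53.9% after median scaling and 46.8% after quantile normalization. Skiv2l kept its -0.92 without a filter but not its call (adjusted p = 0.0706), and ran from -1.08 to -0.77 with 1 library left out, losing its call without either control.

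Deviations of same-numbered libraries from their genotype mean correlated at -0.08 over genes. With 2 libraries per genotype both pairs give the same value by construction, so this cannot show whether the libraries were paired. The sample labels name no litter or batch. With a replicate block, 2 sensors were called lower (Ddx58 adjusted p = 0.0196, Dhx58 adjusted p = 0.0270), and 1264 genes were called higher and 3393 lower. FPKM near 0.5, as for Tlr3, Tlr7 and Zbp1, makes their fold changes on the FPKM + 1 scale small.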
